A study of Mus musculus with 28 samples.

Results

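The 38 genes described here encode enzymes of glycolysis, lactate dehydrogenase, the pentose phosphate pathway, the pyruvate dehydrogenase complex and the citrate cycle, and they were chosen by name. The platform annotation paired 34 of the 38 with a probe set that names 1 gene, of 12394 such genes on the array. Hk3, Gpi1, Eno1 and G6pdx had no such probe set and were not analysed here, so the entry enzyme of the pentose phosphate pathway, the isomerase that follows hexokinase and the major enolase are not read in these data. Of the 34, all passed the filter on low signal in the sorted cells (34 of 8424 genes tested), and 33 passed it in the transduced cells (33 of 7237), where Aldoc did not.

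RNA of mouse bone marrow cells was read on 28 Affymetrix arrays in 2 experiments. Their RNA was amplified on different days, and their levels are not compared with each other here. In the transduced cells, progenitors of granulocytes and macrophages (GMP) expressing green fluorescent protein (GFP, 3 arrays) were set against GMP expressing MLL_AF9, a fusion of the MLL and AF9 proteins found in human leukaemia (3 arrays). The sorted experiment held 5 populations, all negative for lineage markers and positive for kit. Haematopoietic stem cell enriched cells (HSC, sca+, 5 arrays) stood beside 4 sca- populations. These were common myeloid progenitors (CMP, FCR+ and CD34low on the label, 4 arrays), GMP (FCR+, CD34high, 4 arrays), megakaryocyte erythrocyte progenitors (MEP, FCR- and CD34-, 3 arrays) and L-GMP (FCR+, CD34+, 6 arrays), which the labels describe as leukaemic. About 10000 sorted cells went into each sample. The labels give no strain, age, promoter, vector or number of animals and do not state that the arrays of a group came from different animals. Each p therefore rests on the spread among these samples, which may be technical.

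Glycolysis splits glucose into pyruvate in the cytosol, and lactate dehydrogenase turns pyruvate into lactate and back. The pentose phosphate pathway branches off at glucose 6-phosphate and yields NADPH and the ribose of nucleotides, while the pyruvate dehydrogenase complex passes carbon into the mitochondrial citrate cycle. In the marrow, haematopoietic stem cells are known for a low mitochondrial activity and a reliance on glycolysis, and several glycolytic genes are known targets of the hypoxia-inducible factors and of MYC.

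The hypoxia-inducible factors read a core ACGTG, and MYC, MAX and USF proteins read CACGTG, which holds that core on both strands. The 250 bases before the RefSeq start (GRCm38.p6) are shown for Ldha, Pgk1 and Hk2, 3 textbook targets of the hypoxia-inducible factors, and for Idh1, whose levels lay far apart between the sorts. Capitals mark ACGTG on either strand, with CACGTG where it reads so. Ldha lies at chr7:46845554-46845803 on the plus strand, Pgk1 at chrX:106186850-106187099 on the plus strand, Hk2 at chr6:82774455-82774704 on the minus strand and Idh1 at chr1:65186480-65186729 on the minus strand.
Ldha: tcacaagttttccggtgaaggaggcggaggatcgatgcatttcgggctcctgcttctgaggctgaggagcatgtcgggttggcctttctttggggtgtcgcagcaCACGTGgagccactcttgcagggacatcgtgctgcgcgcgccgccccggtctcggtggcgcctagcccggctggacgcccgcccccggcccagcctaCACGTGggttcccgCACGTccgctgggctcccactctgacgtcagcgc
Pgk1: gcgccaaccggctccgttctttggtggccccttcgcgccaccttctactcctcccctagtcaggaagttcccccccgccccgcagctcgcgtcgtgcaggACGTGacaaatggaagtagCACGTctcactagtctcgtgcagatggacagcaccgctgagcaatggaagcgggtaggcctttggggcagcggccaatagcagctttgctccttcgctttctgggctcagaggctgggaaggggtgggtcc
Hk2: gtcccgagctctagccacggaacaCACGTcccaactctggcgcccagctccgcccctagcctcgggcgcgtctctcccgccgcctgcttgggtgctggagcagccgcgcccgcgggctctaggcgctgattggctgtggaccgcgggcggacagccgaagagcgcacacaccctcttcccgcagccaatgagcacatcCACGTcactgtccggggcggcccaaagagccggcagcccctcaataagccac
Idh1: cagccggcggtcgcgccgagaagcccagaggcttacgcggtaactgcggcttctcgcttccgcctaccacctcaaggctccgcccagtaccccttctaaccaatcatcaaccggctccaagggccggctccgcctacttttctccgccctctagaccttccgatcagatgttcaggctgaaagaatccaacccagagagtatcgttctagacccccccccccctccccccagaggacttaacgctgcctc
Ldha held 3 marked stretches, 2 of them CACGTG, Pgk1 and Hk2 held 2 each, and Idh1 held none in this window. Of 37 members with a promoter entry, 12 held ACGTG (32.4%, against 18.5% of 27025 genes) and 3 held CACGTG (8.11%, against 6.86%). The 12 were Hk2, Hk3, Pfkm, Aldoa, Pgk1, Pgam1, Pkm, Ldha, Pdhb, Idh3g, Ogdh and Mdh1, and the 3 were Pfkm, Ldha and Ogdh.

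Levels below are log2 intensities after each array was scaled to a common trimmed mean, with low values raised to a floor of 5.27 in the sorted and 6.29 in the transduced experiment. A change is a difference of group means on that scale with its standard error (SE) from limma, and a gene is called where its p, adjusted by Benjamini-Hochberg over all genes tested, is under 0.05. Array medians before the log were 90.8 to 116 in the sorted and 247 to 267 in the transduced experiment. The ratio of 3' to 5' signal of control probe sets was 2.60 to 3.33 and 1.14 to 1.74. Markers followed the labels: the mean of 7 GMP markers was 11.37 to 11.61 in GMP, 10.52 to 11.06 in L-GMP and 7.36 to 8.48 in MEP, the mean of 8 of 10 MEP and erythroid markers was 10.01 to 10.44 in MEP and 6.81 to 7.16 in GMP, while CMP lay between, at 9.68 to 9.97 for the GMP and 8.16 to 9.43 for the MEP and erythroid markers. The mean of 5 of 8 HSC markers was 8.76 to 9.0 in HSC and 6.05 to 6.39 in GMP. It was 7.72 to 7.87 in CMP and 6.69 to 7.60 in MEP. These are means of lists, and a single marker can run against the mean of its list. Immediate early genes, which respond to handling, differed between arrays of a group: their mean (9 of 10 genes) was 9.57 on array 1 of HSC against 11.08 to 12.06 on the other 4, 7.85 on array 1 of CMP against 11.07 to 11.16, 7.84 on array 1 of GMP against 10.23 to 10.62, and 6.93 to 8.18 in L-GMP. In these bulk samples, fewer cells of a type and less RNA per cell cannot be told apart.

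Most of the enzyme genes differed between the sorts. A moderated F test over the 5 sorts called 30 of 34 members, against a background of 62.5% of all genes tested, and the 4 not called were Mdh1, Ogdh, Pdha1 and Tpi1. Among the 4 normal sorts, 17 members were highest in GMP, 12 in MEP, 4 in HSC and 1 in CMP, and 16 were lowest in HSC, 13 in MEP and 5 in GMP. Over the 5 sorts, 14 of 34 spanned more than 1 log2 unit between their lowest and highest group means and 11 spanned less than 0.5. These ranks and spans cover all 34 members, called or not. They were not counted over all genes, so they are not set apart from the pattern of genes in general. Pkm spanned 3.22, Pgam1 2.50 and Pgd 2.11, all measured above the floor, and Mdh1 spanned least (0.13). Aldoc and Idh1 also spanned more than 2, but touched the floor: Aldoc spanned at least 2.80, and Idh1 spanned 3.58 with 1 of 3 MEP arrays at the floor and 3.05 between MEP and GMP without that array.

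**Figure D1:**
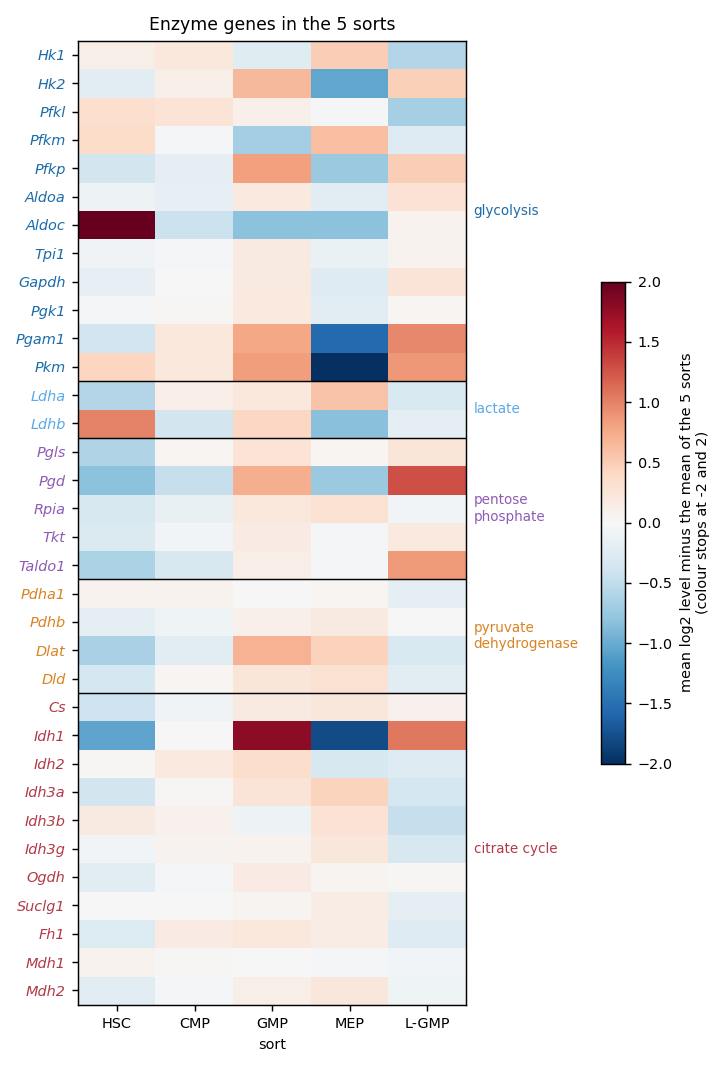
Mean log2 level of 34 enzyme genes in each of the 5 sorts, less the gene's mean over the sorts, on a colour scale from blue (lower) to red (higher) that stops at -2 and 2. Rows are in pathway order; Aldoc stands out in HSC, Pkm and Pgam1 are low in MEP, and Pgd and Taldo1 are highest in L-GMP.

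Against GMP, HSC had lower levels of members in each of the pathways. In HSC, 21 of 34 members were lower and 5 higher, where 41.2% of all genes were called (21.8% lower and 19.4% higher), and the median change of the members was -0.36 against 0.01 over all genes. The lower members included all 5 of the pentose phosphate pathway, 3 of 4 pyruvate dehydrogenase subunits, 6 of 11 in the citrate cycle and 6 of 12 in glycolysis. The higher ones were Aldoc, Pfkm, Ldhb, Hk1 and Idh3b. Stroma and endothelium markers (2 of 4 tested) had a mean of 6.43 to 7.36 in HSC and 5.27 to 5.90 in GMP, with Col1a1 and Col1a2 higher by 1.04 and 1.69, both called, while Pecam1 was at the floor on all arrays of both sorts and Cdh5 on all 4 of GMP and 4 of 5 of HSC. Macrophage markers (4 of 5) had a mean of 6.52 to 7.09 in HSC and 7.94 to 8.34 in GMP, and the part of either list in these counts was not tested. In MEP, 11 members were lower and 3 higher than in GMP (27.5% of all genes called, 15.6% lower and 11.9% higher), 7 of the 11 in glycolysis, and none of the 4 pyruvate dehydrogenase subunits was called. In CMP, 11 were lower and 2 higher than in GMP (16.8% of all genes, 8.18% and 8.59%). In the comparisons that leave GMP aside, HSC had 8 members lower and 2 higher than CMP (13.4% of all genes called, 7.43% and 6.01%) and 13 lower and 7 higher than MEP (32.9%, 15.5% and 17.4%), a split that became 9 and 10 without scaling of the arrays. MEP had 7 lower and 5 higher than CMP (17.0%, 10.8% and 6.18%), or 8 and 3 without scaling.

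Against GMP, more members were lower than higher in L-GMP. There 13 of 34 members were lower and 4 higher, where 33.5% of all genes were called (18.3% lower and 15.2% higher), and the median change was -0.17 against 0.01 over all genes. Lower were 7 of 11 citrate cycle members, both lactate dehydrogenases, Pfkl, Hk1, Dlat and Rpia, and higher were Pgd, Taldo1, Aldoc and Pfkm. Against HSC 14 members were higher and 9 lower in L-GMP (47.2% of all genes called, 23.4% higher and 23.8% lower), against CMP 9 and 8 (39.9%, 18.4% and 21.5%), and against MEP 12 and 13 (45.2%, 22.3% and 22.9%), a split that became 14 and 8 without scaling of the arrays. These comparisons share the L-GMP arrays, and those against GMP share the GMP arrays. Macrophage markers (4 of 5) had a mean of 8.98 to 9.72 in L-GMP and 7.94 to 8.34 in GMP. The mean of the GMP markers given above was lower in L-GMP. The immediate early mean of L-GMP, 6.93 to 8.18, was below arrays 2 to 4 of GMP (10.23 to 10.62). Array 1 of GMP, at 7.84, lay within the L-GMP range. The part of these lists in the counts was not tested. Cell cycle genes (14 of 15) had a mean of 10.30 to 10.55 in L-GMP and 10.32 to 10.55 in GMP, with limma calling 0 between them and 0 at an unadjusted p under 0.05, and of 9.65 to 10.18 in HSC, where 6 were lower than in GMP.

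**Figure D2:**
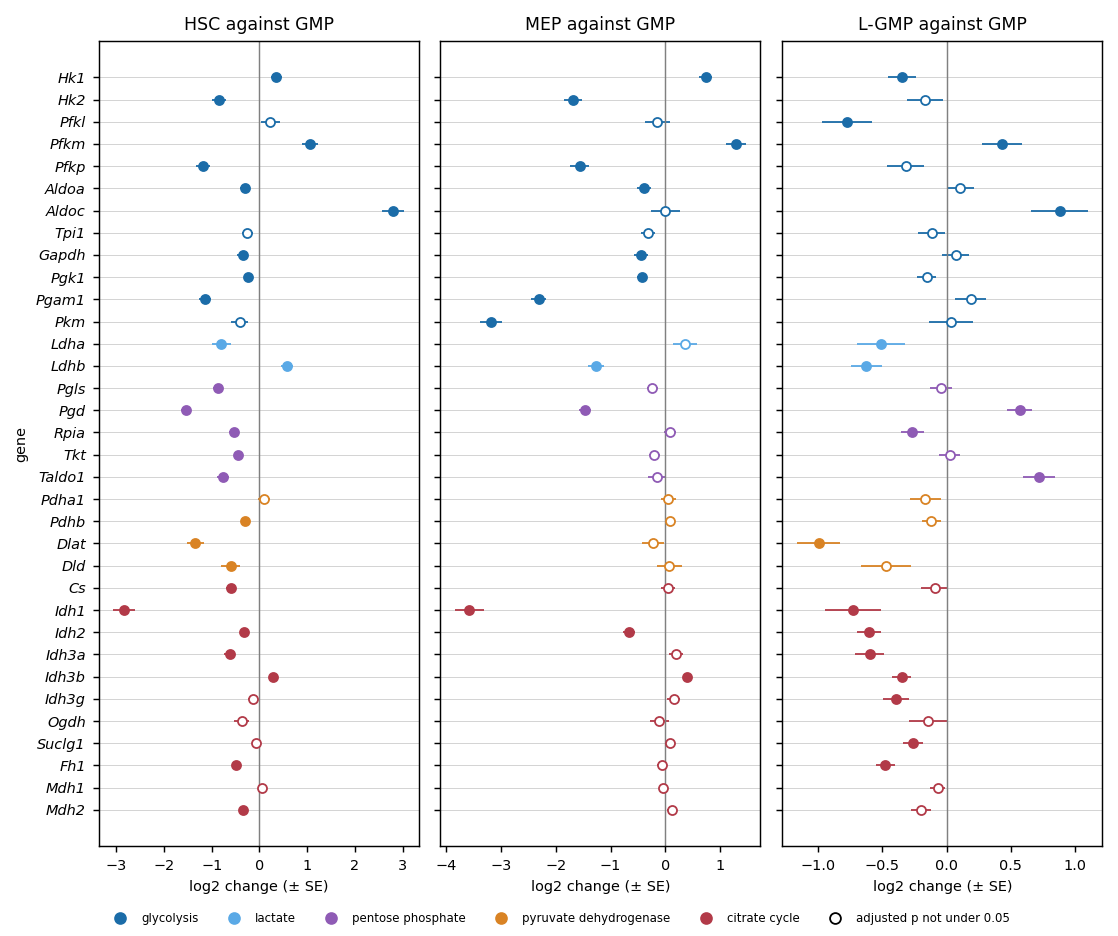
Log2 change of each enzyme gene in HSC, MEP and L-GMP against GMP, with bars of 1 SE of the limma fit; filled points have an adjusted p under 0.05 and colours give the pathway. The 3 panels have axes of different length; all 5 pentose phosphate genes lie below 0 in HSC, and all 11 citrate cycle genes lie below 0 in L-GMP, 7 of them called.

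Hexokinase, which traps glucose in the cell as glucose 6-phosphate, was read for 2 isozymes. Hk1, the isozyme of most tissues, had log2 levels of 10.76, 11.05, 11.09, 10.90 and 11.03 in HSC, 11.02, 11.03, 11.10 and 11.07 in CMP, 10.51, 10.72, 10.75 and 10.47 in GMP, 11.18, 11.43 and 11.43 in MEP, and 9.97 to 10.54 with a median of 10.25 in L-GMP. It was higher in HSC than in GMP by 0.35 (SE 0.11, adjusted p = 0.0143) and in MEP by 0.73 (SE 0.13, adjusted p = 0.000107), with no overlap. The L-GMP mean was the lowest of the 5, with changes of -1.08 from MEP and -0.35 from GMP (SE 0.11, adjusted p = 0.0154), whose arrays it overlapped. Hk2, the isozyme that insulin and hypoxia induce in other tissues, ran the other way among the normal sorts. Its levels were 9.67, 9.67, 9.46, 10.25 and 9.46 in HSC, 9.83, 10.16, 10.16 and 9.97 in CMP, 10.43, 10.51, 10.60 and 10.68 in GMP, 9.0, 8.94 and 8.65 in MEP and 9.97 to 10.54 with a median of 10.43 in L-GMP. Every HSC, CMP and MEP array was below every GMP array, and the changes against GMP were -0.85 in HSC and -1.69 in MEP (adjusted p = 7.19e-05 and 6.13e-08). Hk2 in L-GMP differed from GMP by -0.17 (SE 0.14, adjusted p = 0.396).

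Phosphofructokinase, the committed step of glycolysis, is built from a liver-type (Pfkl), a muscle-type (Pfkm) and a platelet-type (Pfkp) subunit. Pfkp was 7.85, 7.43, 7.38, 7.21 and 7.47 in HSC, 7.79, 7.61, 7.54 and 7.59 in CMP, 8.47, 8.50, 8.86 and 8.78 in GMP, 7.09, 7.25 and 6.93 in MEP and 7.76 to 8.62 with a median of 8.44 in L-GMP. GMP stood clear above the other normal sorts (-1.19 in HSC, SE 0.15, adjusted p = 2.31e-06). Pfkm had the opposite order, at 8.05, 8.13, 8.09, 8.41 and 8.11 in HSC, 7.59, 7.91, 7.74 and 7.80 in CMP, 6.84, 7.15, 7.34 and 7.06 in GMP, 8.09, 8.19 and 8.87 in MEP and 7.21 to 8.06 with a median of 7.48 in L-GMP. It was higher than in GMP by 1.06 in HSC (SE 0.16, adjusted p = 2.35e-05) and by 1.29 in MEP (SE 0.19, adjusted p = 1.27e-05). In L-GMP it was higher by 0.43 (SE 0.16, adjusted p = 0.0383), with overlap, and this call was lost under 8 of 21 alternatives. Pfkl was the subunit called lower in L-GMP than in every normal sort, at 7.71 to 8.50 with a median of 8.03. It was 9.03, 9.12, 8.67, 9.17 and 9.46 in HSC, 8.88, 9.14, 8.85 and 9.29 in CMP, 8.37, 8.79, 9.01 and 9.27 in GMP and 8.46, 8.44 and 9.25 in MEP. The change from GMP was -0.77 (SE 0.20, adjusted p = 0.00421). It was -1.0 from HSC, -0.95 from CMP and -0.63 from MEP, all called. The L-GMP arrays did not overlap those of HSC and CMP but overlapped those of GMP and MEP.

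Aldolase, which splits fructose 1,6-bisphosphate, was read as aldolase A (Aldoa), the form of most tissues, and aldolase C (Aldoc), best known from brain. Aldoc was 8.36, 8.21, 7.82, 7.61 and 8.36 in HSC, 5.63, 5.63, 5.99 and 5.40 in CMP, and at the floor of 5.27 on all 4 GMP and all 3 MEP arrays. HSC thus read at least 6.97-fold higher than GMP, and HSC was higher than CMP by 2.41 (SE 0.23, adjusted p = 1.93e-07). In L-GMP, Aldoc was 5.32 to 6.91 with a median of 6.07, at least 1.84-fold above GMP, but the size of this change follows the floor: it was 2.12 with the floor at the 10th percentile and 0.03, not called, with the floor at the 50th. Aldoa was 11.07, 11.25, 11.08, 11.30 and 11.30 in HSC, 11.20, 11.20, 11.09 and 11.06 in CMP, 11.30, 11.32, 11.67 and 11.70 in GMP, 11.03, 11.19 and 11.10 in MEP and 11.27 to 11.81 with a median of 11.64 in L-GMP. Its changes were small beside those of Aldoc, -0.30 in HSC (adjusted p = 0.0326, lost under 7 alternatives) and -0.39 in MEP against GMP (adjusted p = 0.0203).

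The triose and lower glycolytic enzymes ranged from nearly flat to among the widest. Tpi1 and Gapdh, which interconvert and oxidise the triose phosphates, spanned little. Tpi1 had group means of 10.30 to 10.61 and was not called in any sort against GMP. Gapdh, read only through the array's control probe sets, had 11.75 to 12.26 and was lower than in GMP in HSC (-0.36, SE 0.11, adjusted p = 0.0136) and MEP (-0.44, SE 0.13, adjusted p = 0.0108). Pgk1, the first ATP-yielding step, was 12.49 ± 0.06 (SD, n = 4) in GMP and 12.07 ± 0.12 (n = 3) in MEP, a change of -0.42 (SE 0.09, adjusted p = 0.00088). Pgam1, the phosphoglycerate mutase of most tissues, fell much further in MEP. It was 9.77, 9.77, 9.58, 9.44 and 9.72 in HSC, 10.31, 10.20, 10.33 and 10.14 in CMP, 10.70, 10.71, 10.84 and 10.96 in GMP, 8.39, 8.89 and 8.18 in MEP and 10.78 to 11.20 with a median of 10.97 in L-GMP. The 4 normal sorts did not overlap, in the order MEP, HSC, CMP and GMP, and the changes against GMP were -2.32 in MEP, -1.15 in HSC and -0.56 in CMP, all called.

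Pkm, which encodes the muscle-type pyruvate kinases M1 and M2 and closes glycolysis, was lowest in MEP among the 5 sorts. It was 9.63, 9.74, 9.48, 9.81 and 10.08 in HSC, 9.34, 9.69, 9.57 and 9.51 in CMP, 9.91, 9.94, 10.30 and 10.48 in GMP, 6.98, 7.31 and 6.62 in MEP and 9.71 to 10.63 with a median of 10.22 in L-GMP. MEP was 9.12-fold below GMP (-3.19, SE 0.20, adjusted p = 9.25e-11) and 2.56 below CMP on the log2 scale. CMP was also called lower than GMP by limma, without overlap (-0.63, SE 0.19, adjusted p = 0.0236). HSC against GMP was not called (-0.41, SE 0.18, limma adjusted p = 0.0700). Pkm had 1 probe set, which does not separate M1 from M2. Red cells use the product of another gene, Pklr, which read 9.11 ± 0.35 (n = 3) in MEP and 9.48 ± 0.28 (n = 4) in GMP and was not called between them (adjusted p = 0.251). Pkm in L-GMP differed from GMP by 0.03 (SE 0.17, adjusted p = 0.921).

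**Figure D3:**
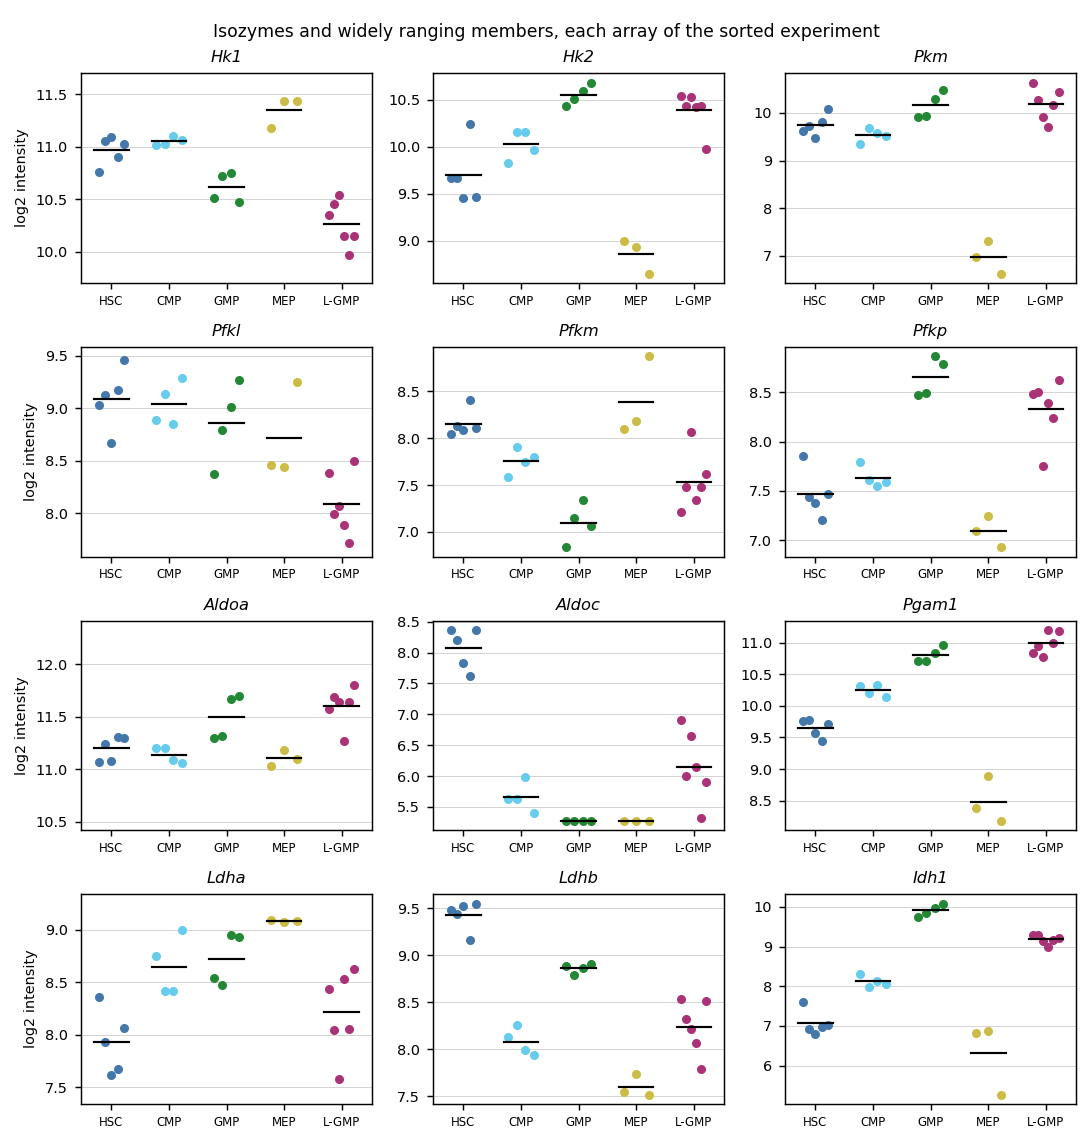
Log2 intensity of 12 members on each of the 22 sorted arrays, 1 point per array and a bar at the group mean; each panel has its own vertical axis. Aldoc and Ldhb are highest in HSC, Hk2, Pfkp and Idh1 are highest in GMP, and Pkm and Pgam1 are lowest in MEP.

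Lactate dehydrogenase is a tetramer of A (Ldha) and B (Ldhb) subunits, the A form being known for favouring lactate and the B form for favouring pyruvate. Ldha was 8.36, 7.93, 7.62, 7.67 and 8.06 in HSC, 8.75, 8.42, 8.42 and 9.0 in CMP, 8.55, 8.47, 8.95 and 8.93 in GMP, 9.10, 9.08 and 9.08 in MEP and 7.58 to 8.63 with a median of 8.25 in L-GMP. HSC lay below all GMP arrays (-0.80, SE 0.19, adjusted p = 0.00228). L-GMP was lower than GMP by 0.51 on the log2 scale (SE 0.19, adjusted p = 0.0394), with overlap, and that call was lost under 8 of 21 alternatives. Ldhb moved opposite to Ldha in HSC, at 9.48, 9.44, 9.52, 9.16 and 9.55 there, 8.13, 8.25, 7.99 and 7.94 in CMP, 8.89, 8.79, 8.86 and 8.90 in GMP, 7.55, 7.73 and 7.52 in MEP and 7.79 to 8.53 with a median of 8.27 in L-GMP. HSC was above and MEP below every array of the other normal sorts (0.57 and -1.26 against GMP, adjusted p = 0.00109 and 5.79e-07). Every L-GMP array was below every GMP array (-0.62, SE 0.12, adjusted p = 0.000433). The promoter of Ldha, shown above, held more CACGTG than the other 3 printed.

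In the pentose phosphate pathway, 2 enzymes were called higher in L-GMP than in every normal sort. Pgd, 6-phosphogluconate dehydrogenase, which makes NADPH in the oxidative branch, was 9.79, 9.66, 9.88, 9.81 and 9.68 in HSC, 10.06, 10.10, 10.11 and 10.19 in CMP, 11.13, 11.23, 11.21 and 11.64 in GMP, 9.84, 9.85 and 9.82 in MEP and 11.67 to 12.06 with a median of 11.90 in L-GMP. All 6 L-GMP arrays were above all 16 arrays of normal sorts, by 0.57 over GMP (SE 0.10, adjusted p = 9.0e-05) and 2.11 over HSC (SE 0.09, adjusted p = 2.81e-14). The other 3 probe sets of Pgd gave 0.56, 0.67 and 1.08 for L-GMP against GMP, all called. Taldo1, transaldolase of the non-oxidative branch, was 10.31, 10.15, 9.99, 9.95 and 10.23 in HSC, 10.50, 10.50, 10.26 and 10.48 in CMP, 10.79, 10.77, 10.88 and 11.12 in GMP, 10.64, 10.39 and 11.15 in MEP and 11.39 to 11.83 with a median of 11.56 in L-GMP. Its L-GMP arrays too were above all normal ones, by 0.72 over GMP (SE 0.13, adjusted p = 0.000138). The remaining 3 did not share this. Rpia, ribose 5-phosphate isomerase, was lower in L-GMP than in GMP by 0.27 on the log2 scale (adjusted p = 0.0280), a call lost with the replicate block (adjusted p = 0.0818). Pgls, the lactonase, and Tkt, transketolase, differed from GMP by -0.04 (SE 0.09) and 0.02 (SE 0.08), neither called.

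HSC had the lowest mean of all 5 among the normal sorts, MEP included. The changes of HSC against GMP were -1.54 for Pgd, -0.88 for Pgls, -0.76 for Taldo1, -0.54 for Rpia and -0.45 for Tkt, and no HSC array reached a GMP array for any of the 5 (groups did not overlap, in either direction, for 36.1% of all genes). Against MEP, 4 of the 5 were lower in HSC, as were 15.5% of all genes, and Pgd was not called. Against CMP, Pgls and Pgd were lower in HSC, 2 of the 5, as were 7.43% of all genes.

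The pyruvate dehydrogenase complex joins the E1 subunits Pdha1 and Pdhb, the E2 subunit Dlat and the E3 subunit Dld. Dlat was the variable one, at 7.36, 6.79, 6.35, 6.88 and 7.21 in HSC, 7.35, 7.29, 7.24 and 7.55 in CMP, 8.10, 8.42, 8.26 and 8.27 in GMP, 8.0, 7.78 and 8.33 in MEP and 6.97 to 7.69 with a median of 7.25 in L-GMP. All L-GMP arrays were below all GMP arrays (-0.99, SE 0.17, adjusted p = 0.000103), as were all HSC arrays (-1.35, SE 0.18, adjusted p = 3.00e-06). The other 2 probe sets of Dlat gave -0.97 and -1.18 for L-GMP against GMP but disagreed for HSC, 1 at -1.30 and 1 at -0.32 (adjusted p = 0.0519 for the latter). For L-GMP against HSC the 3 probe sets changed by 0.35 (adjusted p = 0.0752), 0.33 (adjusted p = 0.0441) and -0.86 (adjusted p = 3.25e-06), so 2 of them were called in opposite directions and the direction there depends on the probe set. Pdha1 spanned 9.84 to 10.09 in group means, Pdhb 9.37 to 9.76 and Dld 7.71 to 8.38. None of these 3 was called in L-GMP against GMP, Dld at -0.47 (adjusted p = 0.0694, and 0.0174 under the block).

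Citrate cycle members were lower in L-GMP than in GMP or not called. The isocitrate dehydrogenases are 5 of the 11. Idh1, the cytosolic NADP-linked enzyme, was 7.60, 6.93, 6.79, 6.98 and 7.03 in HSC, 8.31, 7.99, 8.13 and 8.06 in CMP, 9.74, 9.85, 9.96 and 10.08 in GMP, 6.83, 6.88 and 5.27 in MEP, the last at the floor, and 8.98 to 9.30 with a median of 9.18 in L-GMP. GMP was above every array of the other sorts, 7.16-fold over HSC (2.84 on the log2 scale, SE 0.23, adjusted p = 3.62e-09). L-GMP lay between GMP and the others, at -0.73 from GMP (SE 0.22, adjusted p = 0.0144) and 2.11 from HSC (SE 0.21, adjusted p = 2.38e-08). A further, dimmer probe set of Idh1 gave -0.68 and 1.13 for these 2 changes. Idh2, its mitochondrial NADP-linked relative, was 10.68, 10.76, 10.75, 10.64 and 10.70 in HSC, 10.85, 10.83, 10.81 and 10.97 in CMP, 11.04, 11.01, 11.04 and 11 in GMP, 10.47, 10.47 and 10.14 in MEP and 10.14 to 10.66 with a median of 10.43 in L-GMP. Every L-GMP and every MEP array was below every GMP array (-0.60, SE 0.09, adjusted p = 2.23e-05 for L-GMP).

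The 3 subunits of the NAD-linked isocitrate dehydrogenase, which drives the cycle itself, were each lower in L-GMP. Idh3a, the catalytic subunit, was 9.23, 9.14, 8.96, 9.31 and 9.13 in HSC, 9.53, 9.47, 9.50 and 9.69 in CMP, 9.64, 9.61, 9.96 and 9.91 in GMP, 9.88, 9.88 and 10.16 in MEP and 8.89 to 9.39 with a median of 9.22 in L-GMP, a change of -0.60 from GMP (SE 0.11, adjusted p = 0.000307) with no overlap. L-GMP and HSC overlapped in Idh3a. Idh3b was 10.30 ± 0.07 (SD, n = 6) in L-GMP and 10.65 ± 0.10 (n = 4) in GMP, and all L-GMP arrays were below all arrays of the normal sorts. Its change from GMP was -0.35 (SE 0.07, adjusted p = 0.000854), and -0.21 and not called with the probe set that does not end in _s_at. Idh3g was 11.13 ± 0.16 (n = 6) in L-GMP and 11.52 ± 0.21 (n = 4) in GMP, a change of -0.39 (SE 0.10, adjusted p = 0.00471).

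Of the later steps, Fh1, fumarase, was 10.43 ± 0.09 (n = 6) in L-GMP against 10.91 ± 0.07 (n = 4) in GMP, without overlap (-0.48, SE 0.07, adjusted p = 2.49e-05), and HSC had the same mean change, -0.48. Suclg1, the shared subunit of succinyl-CoA synthetase, was 10.04 ± 0.11 in L-GMP and 10.30 ± 0.10 in GMP (-0.26, adjusted p = 0.0107, lost without array 3 of GMP). Cs, citrate synthase, the entry step, was not called between L-GMP and GMP (-0.09, SE 0.10) and was lower in HSC (-0.60, SE 0.11, adjusted p = 0.000154). Ogdh, of the oxoglutarate dehydrogenase complex, was not called in either. Malate dehydrogenase closes the cycle in mitochondria (Mdh2) and works in the cytosol as Mdh1. Mdh1 was 12.15, 12.21, 12.32, 12.25 and 12.16 in HSC, 12.14, 12.15, 12.18 and 12.20 in CMP, 12.15, 12.18, 12.16 and 12.14 in GMP, 12.14, 12.14 and 12.04 in MEP and 12.03 to 12.17 with a median of 12.07 in L-GMP, the narrowest span of all members. Mdh2 was 11.55, 11.59, 11.59, 11.58 and 11.57 in HSC, 11.70, 11.77, 11.78 and 11.91 in CMP, 11.87, 11.80, 11.96 and 12.04 in GMP, 11.88, 11.96 and 12.26 in MEP and 11.61 to 11.80 with a median of 11.74 in L-GMP. It was lower in HSC than in GMP by 0.34 on the log2 scale (adjusted p = 0.00194), and -0.20 from GMP in L-GMP was not called (adjusted p = 0.0553).

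In L-GMP, 7 of 34 members were called in the same direction against each of the 4 normal sorts. Pgd and Taldo1, 2 of 34, were called higher against each of HSC, CMP, GMP and MEP, as were 8.06% of all genes. Hk1, Idh3b, Idh3g, Pfkl and Suclg1, 5 of 34, were called lower against each, as were 8.43%. The lowest L-GMP array of Pgd and of Taldo1 was above the highest normal array, and the highest L-GMP array of Idh3b was below the lowest normal one. For Hk1, Idh3g, Pfkl and Suclg1 the L-GMP arrays overlapped at least 1 normal sort. The share of all genes with L-GMP arrays apart from all normal arrays was not counted. With the replicate block in limma, Idh3g was not called against HSC (adjusted p = 0.0509), nor Suclg1 against CMP (adjusted p = 0.0592).

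**Figure D4:**
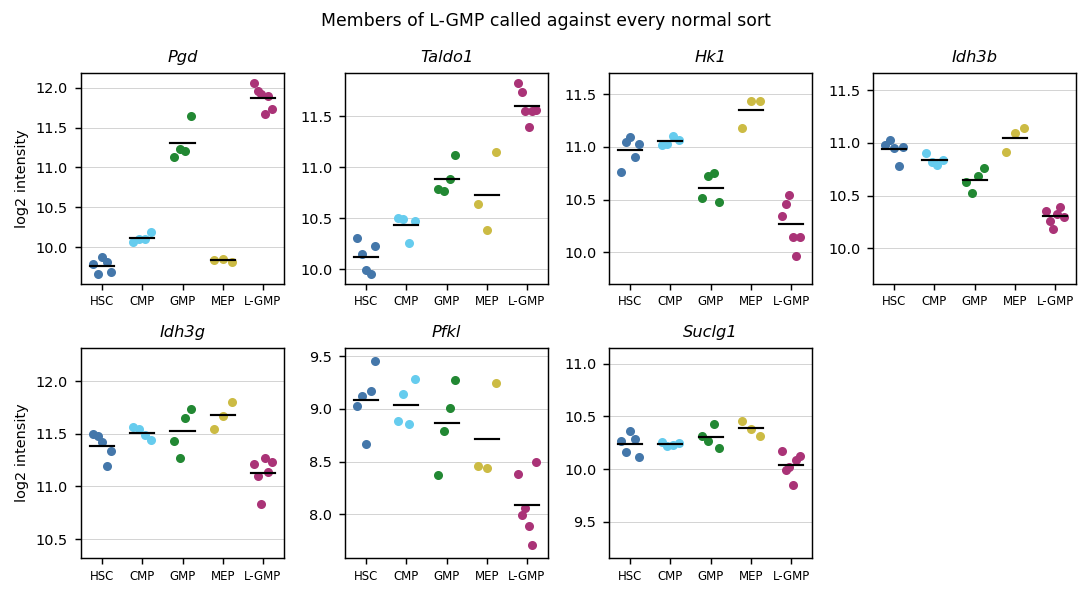
Log2 intensity of the 7 members called in L-GMP against every normal sort, 1 point per array and a bar at the group mean; each panel has its own vertical axis. Pgd and Taldo1 are highest in L-GMP, and for Hk1, Idh3b, Idh3g, Pfkl and Suclg1 the L-GMP mean is the lowest of the 5 sorts.

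Because both genes of a pair are read on the same array, the difference of their log2 levels does not depend on array scaling where both lie above the floor, and its change between sorts was tested for 7 isozyme pairs by an exact two-sided permutation test over arrays, adjusted over the 7. Between HSC and GMP, all 7 pairs were called. Of all single genes, 41.2% were called there by limma, and how often other pairs of genes change was not tested. Pfkm and Pfkp were both set against Pfkl, so the 7 pairs are not independent. Idh2 minus Idh1 was higher in HSC by 2.52 and Ldhb minus Ldha by 1.36 (exact p = 0.00794 each, the smallest this design allows, adjusted 0.0111). Aldoc minus Aldoa was higher by at least 3.10, a bound set by the floor that Aldoc had on all GMP arrays, where the spread is that of Aldoa alone (1.62 and 4.33 with the floor at the 50th and 10th percentile). Pfkp minus Pfkl differed by -1.41 and Mdh2 minus Mdh1 by -0.40 at the same exact p of 0.00794. Hk2 minus Hk1 differed by -1.21 and Pfkm minus Pfkl by 0.83 (exact permutation p = 0.0159, adjusted 0.0159). Between L-GMP and GMP, Pfkm minus Pfkl was higher by 1.2 without overlap (exact p = 0.00476, the smallest possible, adjusted 0.0333), and the other 6 pairs were not called. The nearest of those were Pfkp minus Pfkl (0.45), Aldoc minus Aldoa (0.77, with Aldoc at the floor in GMP) and Mdh2 minus Mdh1 (-0.13), each at an adjusted exact p of 0.10. With any 1 array of L-GMP or GMP left out no pair was called, since 1 pair alone at the smallest possible p then has an adjusted p over 0.05, and the change of Pfkm minus Pfkl stayed between 1.01 and 1.33 over all alternatives.

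Other enzymes and regulators of the same pathways were read for 28 of 43 and 18 of 34 listed genes in the sorted experiment. In L-GMP against GMP, 7 of the 28 enzymes were lower and 1 higher, median -0.15. Of all genes, 18.3% were lower and 15.2% higher there. The lower ones included 4 succinate dehydrogenase subunits, Sdhc at -0.55 and Sdhb at -0.44 the largest, the succinyl-CoA synthetase subunit Suclg2 at -0.80 and the mitochondrial aspartate aminotransferase Got2 at -0.65. H6pd, the endoplasmic reticulum enzyme that performs the opening steps of the pentose phosphate pathway, was higher by 0.68 (SE 0.10, adjusted p = 3.40e-05). Of the 18 transporters and regulators, 8 were lower and 3 higher, beside the same shares of all genes. Slc16a1, the lactate and pyruvate carrier MCT1, fell furthest, from 9.03 ± 0.22 (n = 4) in GMP to 6.43 ± 0.35 (n = 6) in L-GMP (-2.61, SE 0.21). The prolyl hydroxylase Egln3 (-1.02), Myc (-0.97) and Nfe2l2 (-0.72), whose product NRF2 controls antioxidant genes, were also lower. Txnip, a brake on glucose uptake, was higher by 0.90, the regulator Pfkfb2 by 0.61 and the oxoglutarate carrier Slc25a11 by 0.60.

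In HSC against GMP, 13 of 28 enzymes were lower and 2 higher, and 6 of 18 transporters and regulators were lower and 4 higher. Of all genes, 21.8% were lower and 19.4% higher there. Rpe, the epimerase of the pentose phosphate pathway, was lower by 1.58 on the log2 scale, as with the 5 members there, and Me2, Sdhd and Pklr changed by -1.05, -0.91 and -0.83. Bpgm and Pck2 were higher by 0.55 and 0.45. The glucose transporter gene Slc2a3 was higher by 2.87 (SE 0.19) and Txnip by 2.29 (SE 0.18), with Slc2a1 at 0.63 and Mlxip at 0.59, while Slc16a1 (-1.76), Pfkfb2 (-1.13), the mitochondrial pyruvate carrier Mpc1 (-0.88) and Egln3 (-0.86) were lower. In MEP against GMP, 5 enzymes were lower and 3 higher, led by Fbp1 (-2.35), Rpe (-1.02), Pgm1 (-0.86) and Glud1 (-0.78) and by Pgm2 (1.26), Aco1 (0.68) and Pck2 (0.54). Of transporters and regulators 7 were lower and 4 higher in MEP, where 15.6% of all genes were lower and 11.9% higher. Egln3 (-2.79), Slc2a1 (-1.67), Hif1a (-1.04) and Egln1 (-0.95) were lower, and Txnip (2.01), Slc2a3 (1.87), Nfe2l2 (1.0) and Myc (0.42) were higher.

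In the transduced GMP, none of the 33 members read was called between MLL-AF9 and GFP. No member was called in either direction with limma, where 0.0276% of all genes (2 of 7237) were called, and 0 members had an unadjusted p under 0.05. A fit with the pairs as a block called 1.74% of all genes and 0 members. Groups did not overlap for 17.5% of all genes. The largest change was -0.27, of Pfkp, the smallest adjusted p without the block was 0.627, and the median change was -0.01 against 0.02 over all genes. The 3 GFP and 3 MLL-AF9 arrays overlapped for every member.

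In the fit without pairs, the members with the smallest p were these 5. With the pairs as a block in limma, the smallest adjusted p were 0.317 for Pfkp, 0.369 for Dld, 0.377 for Ogdh and 0.381 for Idh3a. The values and SE below are from the fit without pairs. Ogdh was 9.02, 9.28 and 9.54 with GFP and 9.53, 9.49 and 9.54 with MLL-AF9 (0.24, SE 0.15). Dlat was 10.23, 10.52 and 10.54 with GFP and 10.83, 10.50 and 10.63 with MLL-AF9 (0.22, SE 0.14). Pfkp was 12.05, 11.38 and 11.40 with GFP and 11.53, 11.12 and 11.36 with MLL-AF9 (-0.27, SE 0.21), and the groups overlapped for these as for the other members. Pdhb was 11.36, 11.46 and 11.50 with GFP and 11.48, 11.71 and 11.52 with MLL-AF9 (0.13, SE 0.12), and Idh1 was 12.21, 11.68 and 11.82 with GFP and 11.87, 11.75 and 11.52 with MLL-AF9 (-0.19, SE 0.17). The isozymes overlapped between the groups as well. Pfkl was 12.42, 11.08 and 11.07 with GFP and 12.24, 11.02 and 11.08 with MLL-AF9, array 1 standing high in both. Hk1 was 11.86, 11.59 and 11.56 with GFP and 11.82, 11.49 and 11.46 with MLL-AF9. Hk2 was 12.45, 12.03 and 12.13 with GFP and 12.46, 12.10 and 12.02 with MLL-AF9, so array 1 was the highest of its group for these as well. Aldoc, which the filter left out, was 9.83, 6.72 and 6.47 with GFP and 8.04, 6.55 and 6.83 with MLL-AF9. Pfkm was 8.4, 8.57 and 8.45 against 8.63, 8.38 and 8.62, and Aldoa 13.02, 12.97 and 12.95 against 13.01, 12.84 and 12.92. Ldha, at 13.15, 12.81 and 12.87 with GFP and 12.99, 12.73 and 12.93 with MLL-AF9, and Ldhb, at 9.77, 10.03 and 9.81 and 10.26, 9.93 and 9.82, also overlapped. Idh2 was 12.10, 12.04 and 12.10 against 12.26, 12.02 and 12.24, Mdh1 12.99, 12.90 and 13.02 against 12.95, 12.83 and 12.94, and Mdh2 12.92, 13.03 and 13.02 against 13.07, 13.01 and 12.99. Of the other 26 enzymes and 17 transporters and regulators read there, none was called.

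**Figure D5:**
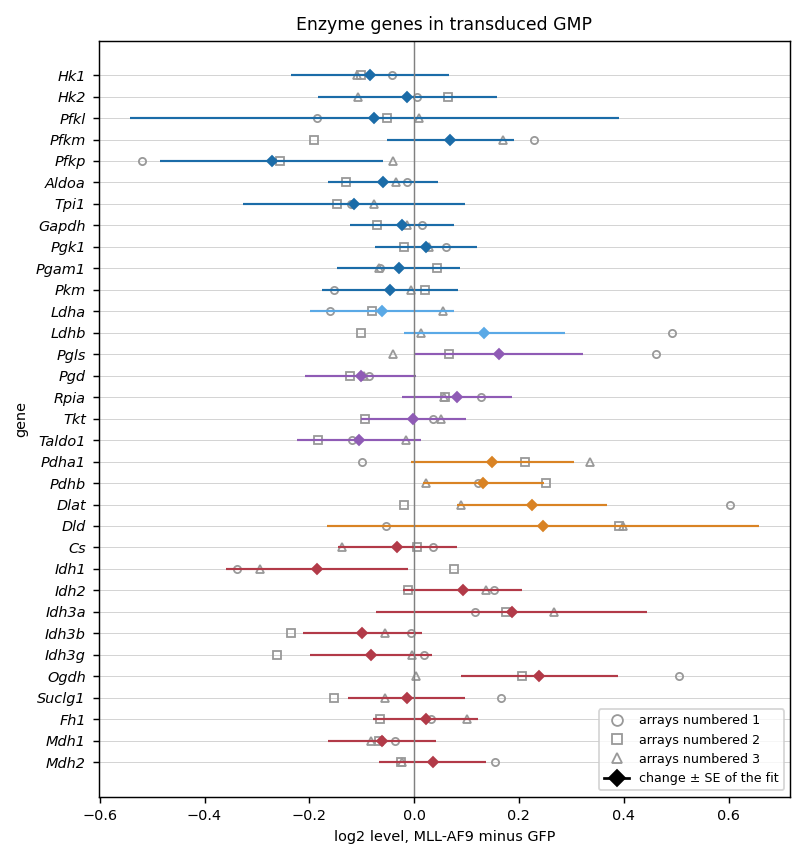
Log2 level of MLL-AF9 less GFP for 33 enzyme genes in transduced GMP; diamonds with bars give the change and 1 SE of the limma fit, and open marks give the difference of arrays with the same replicate number. Differences lie on both sides of 0 and none is called.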

How the data were processed

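RNA of 28 bone marrow samples was read on arrays of 22690 probe sets. The authors deposited linear signal intensity per probe set. The submitters' processing notes name MAS5. Each array held 187 to 413 values at or below 0, whose origin is not given in the sources used here. Genes were taken from the platform annotation, where 20380 probe sets name 1 gene. Gapdh is read by control probe sets. In R 4.3.3, each array was scaled to its experiment's mean after trimming 2% at each end, values were raised to the 25th percentile and log2 was taken. Probe sets above the experiment's median on at least 3 arrays were kept, with the brightest per gene. Each experiment had 1 limma 3.58.1 fit (lmFit, eBayes) of the group means, 10 contrasts for the 5 sorts, with p adjusted by Benjamini-Hochberg over all genes. The fits were also run on simulated data with added changes and independent noise, which did not hold the shared deviation of same-numbered arrays. In the transduced cells, limma without pairs did not call the HSC marker Meis1 at a change of 2.82 (adjusted p = 0.104). Isozyme pairs were tested by exact permutation over arrays. No array counts reads, so precision is limited by the number of arrays.

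Same-numbered GFP and MLL-AF9 arrays deviated together (3 of 3 pairs, r from 0.38 to 0.60) and were taken as pairs by this hint from the data; in the sorted experiment 18 of 37 pairs passed 0.1.

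All members are accounted for. Values on every array (for L-GMP the lowest, median and highest) are given for isozymes and for members called in L-GMP against GMP with a change of 0.5 or more. They are also given for the 5 members with the smallest p in the transduced cells in the fit without pairs. Pkm and Pgam1 were added after their values were seen. Of other pathway genes, up to 4 called per direction are named for HSC, MEP and L-GMP against GMP. Members, lists and the rule were chosen with earlier results of these data known. Alternatives changed the scaling, the floor, the filter, the probe sets, the covariates, the block and the arrays included, and leaving out probe sets ending in _x_at or _s_at, which can read related transcripts, was chosen after seeing the data. Hk3, Gpi1, Eno1 and G6pdx were left out for want of a probe set naming 1 gene.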

Additional observations from a re-analysis of the deposited data

Results flagged for a closer look

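In 6 of 135 groups of 4 to 6 arrays examined, 1 array lay apart from the others by Dixon's criterion, which chance alone reaches in about 1 group in 20. Hk2 was 10.25 on array 4 of HSC (the others 9.46 to 9.67) and 9.97 on array 6 of L-GMP (the others 10.42 to 10.54). Array 4 of HSC was also high for Pfkm, at 8.41 against 8.05 to 8.13. Pgls was 11.42 on array 5 of L-GMP against 10.95 to 11.08, Taldo1 was 10.26 on array 3 of CMP against 10.48 to 10.50, and Pgk1 was 12.28 on array 4 of CMP against 12.34 on each of the others. Without array 4 of HSC, 26 members were called between HSC and GMP, as with it. Members whose groups did not overlap in either MLL-AF9 against GFP or L-GMP against GMP were searched for opposite directions. None could be found, since the transduced groups overlapped for every member. No difference of levels was tested between experiments, since these are not comparable.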

How the results depend on the processing

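No called member changed direction under the alternatives run. Single probe sets of Dlat, not called in L-GMP against HSC, gave opposite calls there. Of the 17 members called in L-GMP against GMP, 10 were called under all of them, as were 20 of 26 in HSC against GMP, 12 of 14 in MEP against GMP, 6 of 13 in CMP against GMP and 5 of 12 in MEP against CMP. Leaving out 1 array at a time gave 13 to 18 members in L-GMP against GMP, 23 to 26 against MEP, 19 to 24 against HSC and 14 to 19 against CMP, 21 to 28 in HSC against GMP, 16 to 20 against MEP, 12 to 16 in MEP against GMP, 29 to 30 over the 5 sorts and 0 in MLL-AF9 against GFP. It gave 7 to 12 in MEP against CMP (7 without array 2 or without array 3 of CMP), 6 to 11 in HSC against CMP (6 without array 4 of CMP) and 8 to 13 in CMP against GMP (8 without array 4 of GMP). The isozyme pairs called between L-GMP and GMP, 1 of 7, became 2 with the floor at the 10th percentile, 0 without array 1 of HSC, CMP and GMP together, and 0 to 0 when any array of these groups was left out; between HSC and GMP they were 7 throughout the latter. The alternative without array 1 of HSC, CMP and GMP together covered 185 called results over all comparisons, isozyme pairs included. Of these, 26 were no longer called and 0 changed direction. Without scaling, the median of all genes shifted by 0.14 in HSC against MEP.

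In the sorted experiment the labels do not say whether arrays with the same replicate number share anything beyond that number. The replicate block there gave 17 members in L-GMP against GMP, 25 against MEP, 21 against HSC and 19 against CMP. It gave 26 in HSC against GMP, 8 against CMP and 19 against MEP. In MEP it gave 15 against GMP and 11 against CMP, and in CMP 12 against GMP. In the transduced experiment, where the numbers were taken as pairs, it gave 0. The probe sets used for Aldoa, Tpi1, Pgk1, Ldhb, Pgd, Tkt, Mdh1, Idh1 and Idh3b end in _x_at or _s_at, and the alternative without such probe sets, chosen after seeing the data, called 11 lower and 4 higher in L-GMP against GMP over 32 members.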
